A study of Mus musculus with 6 samples.

Results

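The 38 genes described here make cholesterol and the fatty acids and sphingolipids of the myelin sheath. They were taken by name, and 35 of them had at least 1 row among the 6357 single-gene names in the deposited transcript table. The 3 without a row of their own were Srebf1, Fads2 and Cers2. Together the 35 genes gave 1044 of 36659 transcripts, where a transcript is 1 cDNA molecule of a gene in a cell, recognised by its unique molecular identifier (UMI). By pathway, 15 of 15 sterol enzymes, 2 of 3 sterol regulators, 12 of 13 fatty acid genes and 6 of 7 sphingolipid genes were found.

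The transcripts came from 6 single cells of the brain of CD-1 mice, 2 each of 3 kinds. They were untreated, and their stage is labelled embryo. The study text gives no stage of the animals, so this label could not be checked against it. VLMC-1 and VLMC-2 are vascular and leptomeningeal cells, fibroblast-like cells of vessels and meninges, according to the study text. The sample labels instead call this pair oligodendrocyte progenitor cells. Oligo1-1 and Oligo1-2 are immature oligodendrocytes, and Oligo5-1 and Oligo5-2 are mature myelinating ones. Stored STRT/C1 cDNA, made on a microfluidic chip by template switching, was amplified again and read on a PacBio instrument in a short and a long run. Each cell carried its own barcode. No animal is named for any cell, so the cells of a kind were summed and counted as 1 sample. No test between kinds was possible, and every interval below is a 95% interval of counting error only.

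The 6 cells held 2338 to 11483 transcripts each, and values are given as transcripts per 10000 of the cell. The 10 oligodendrocyte markers summed to between 916 and 1357 per 10000 in the 4 oligodendrocytes and were at 0 in both VLMCs. The VLMC markers reached 411 and 510 per 10000 in the VLMCs and were at 0 in the oligodendrocytes. Of the 10 progenitor markers, the VLMC pair held 8 transcripts of 1 gene, Pdgfra, while the Oligo1 cells held 55 transcripts of the list and the Oligo5 cells 10. Those of Oligo1 were 43 of Olig1, 7 of Olig2, 4 of Gpr17 and 1 of Sox10. Those of Oligo5 were 9 of Olig1 and 1 of Sox10. Pdgfra was at 0 in the oligodendrocytes. Oligo5-2 stood apart in holding all 37 transcripts of the neuron list, from 5 of its genes, and 19 of the 26 of the astrocyte list, while microglia markers were at 0 in the 6 cells.

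Myelin is a stack of cell membrane that an oligodendrocyte wraps around axons, and it is richer in cholesterol and galactolipids than most membranes. Oligodendrocytes make most of its cholesterol themselves, by the mevalonate and squalene pathway. The sterol response factors encoded by Srebf1 and Srebf2 switch the enzymes on when sterol is low, and Insig1 holds those factors back. Long-chain fatty acids are made, elongated and desaturated in parallel, and are joined to sphingoid bases to give ceramide, which is then galactosylated and in part sulfated.

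The member genes took up 3.93% and 4.52% of the transcripts of Oligo1-1 and Oligo1-2, and 2.75% and 2.38% of those of Oligo5-1 and Oligo5-2. In VLMC-1 and VLMC-2 they took up 0.128% and 0.149%. The 3 pathways did not share 1 pattern. Sterol enzymes were about 3-fold higher in Oligo1 than in Oligo5, fatty acid genes differed less and unevenly between the cells of a kind, and sphingolipid genes were at nearly the same level in all 4 oligodendrocytes.

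**Figure D1:**
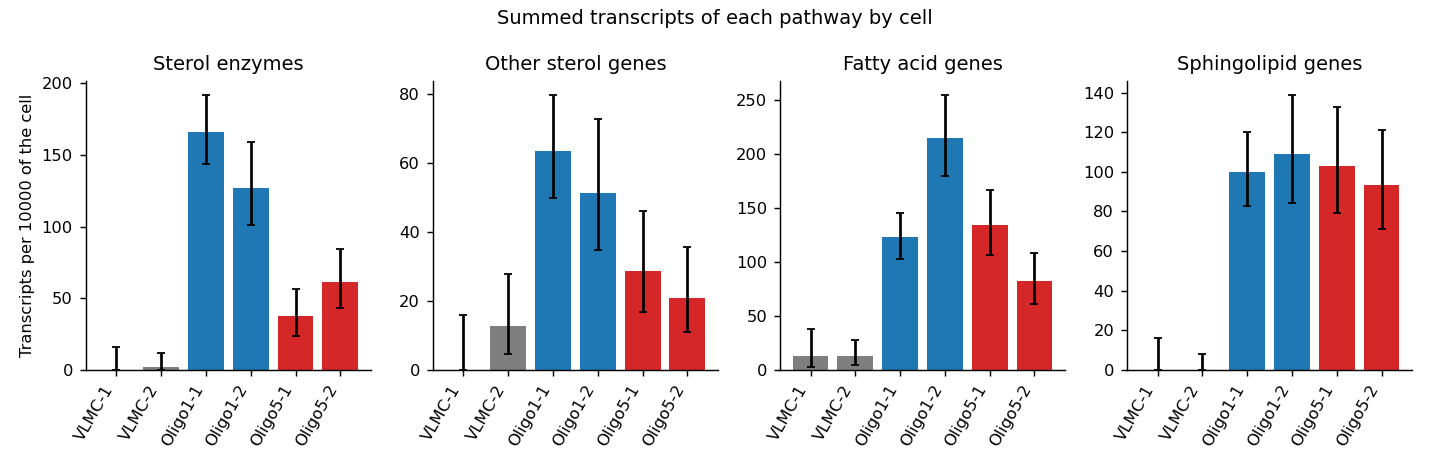
Summed transcripts per 10000 of each cell (vertical axis) for 4 gene lists in the 6 cells; bars start at 0 and error bars are exact Poisson 95% intervals of counting error. Both Oligo1 cells stand above both Oligo5 cells for the sterol enzymes and the other sterol genes, whereas the sphingolipid bars lie between 93.4 and 109 in the 4 oligodendrocytes.

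The sterol enzymes summed to 166 transcripts per 10000 in Oligo1-1 (95% interval 144 to 192) and 127 in Oligo1-2 (101 to 159). In Oligo5-1 they summed to 37.3 (23.4 to 56.5) and in Oligo5-2 to 61.2 (43.3 to 84.0). The ratio of Oligo1 to Oligo5 was 3.09 (2.32 to 4.15), and the cells of the 2 kinds did not overlap. Oligo1-1 held transcripts of 14 of the 15 enzymes, Oligo1-2 of 11, Oligo5-1 of 7 and Oligo5-2 of 10. Without Hmgcs1, which gave 160 of the 329 transcripts, the other 14 enzymes had a ratio of 3.05 (2.05 to 4.67). They summed to 96.7 per 10000 in Oligo1-1 and 43.0 (28.1 to 63.0) in Oligo1-2. In Oligo5-1 they summed to 20.4 and in Oligo5-2 to 30.6 (18.4 to 47.8), so the intervals of Oligo1-2 and Oligo5-2 overlapped. Cyp51 gave 47 of their 137 Oligo1 transcripts. Without Oligo5-2, the cell with neuron and astrocyte transcripts, the log2 ratio of the 15 enzymes was 2.03, and without Oligo5-1 it was 1.32, against 1.63 with both. The part of the neuron and astrocyte transcripts in the level of Oligo5-2 was not tested.

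Hmgcs1 encodes the synthase that makes HMG-CoA at the head of the pathway. It had 80 and 51 transcripts in the Oligo1 cells and 10 and 19 in the Oligo5 cells, that is 69.7, 84.4, 17.0 and 30.6 per 10000. Both Oligo1 cells were above both Oligo5 cells, with a ratio of 3.12 (2.07 to 4.84). It was not seen in either VLMC. Counting the VLMC pair at the floor of 3 transcripts, a value called a bound below, it was 12.6-fold higher in the oligodendrocytes. The interval of the ratio began lower, at 10.2.

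The enzymes that turn HMG-CoA into isoprenoid units and then squalene were thinly covered. Mvk and Pmvk, which phosphorylate mevalonate, had 8 transcripts each. Mvd, which decarboxylates the product, had 9, of which 6 were in Oligo1-1 and 3 in Oligo1-2. Idi1, the isomerase of the isoprenoid unit, had 3, while Fdps and Fdft1, which make farnesyl diphosphate and squalene, had 1 each.

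Past squalene, Sqle and Lss close the path to lanosterol. Sqle, the epoxidase, had 12 and 3 transcripts in the Oligo1 cells and 3 and 2 in the Oligo5 cells. Per 10000, Oligo1-2 at 4.96 lay below Oligo5-1 at 5.09, and the interval of the Oligo1 to Oligo5 ratio of 2.07 ran from 0.716 to 7.29. In the short run alone the log2 ratio of Sqle was -0.95. Lss, the cyclase, had 7 transcripts, with 6 in the Oligo1 pair, and 1 more in Oligo1-1 that was assigned both to Lss and to an overlapping gene.

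Cyp51 removes a methyl group from lanosterol. It had 38 and 9 transcripts in the Oligo1 cells and 1 and 3 in the Oligo5 cells, or 33.1, 14.9, 1.70 and 4.83 per 10000. The cells of the kinds did not overlap, and the ratio was 8.12 (2.97 to 31.0). It was 4.51 without Oligo1-1, 15.8 without Oligo5-2 and 2.76 in the short run alone. Nsdhl and Hsd17b7, which act together in the next demethylation, each had 12 transcripts in Oligo1-1. In the order Oligo1-2, Oligo5-1 and Oligo5-2, Nsdhl had 2, 0 and 2 transcripts and Hsd17b7 had 1, 0 and 2. The ratios were 4.84 (1.11 to 43.8) and 4.49 (1.02 to 41.0). Both rested on Oligo1-1, and without it the log2 ratio was 1.00 for Nsdhl and 0.00 for Hsd17b7.

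The enzymes that finish cholesterol gave no common direction. Ebp, the sterol isomerase, had 8, 0, 1 and 3 transcripts in the 4 oligodendrocytes, and 1 in VLMC-2, the only sterol enzyme transcript of the VLMCs. Sc5d, a desaturase, had 9 transcripts, of which 6 were in Oligo1-1. Dhcr7, the last reductase, had 3 in Oligo1-2, 5 in Oligo5-1 and none in the other cells. Of the regulators, Insig1 had 2 transcripts, both in Oligo1-1, Srebf2 had 2 there and 1 in Oligo5-2, and Srebf1 had none.

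Other genes of the sterol pathway were taken from a list of 23, of which 13 had rows and 3 reached 10 transcripts. Leaving out the lysosomal cholesterol carrier Npc2, this list summed to 47.0 and 36.4 per 10000 in the Oligo1 cells and 20.4 and 11.3 in the Oligo5 cells, a ratio of 2.76 (1.65 to 4.84). Msmo1, the methyl sterol oxidase, had 39, 11, 3 and 4 transcripts in the 4 oligodendrocytes. It gave 50 of the 76 Oligo1 transcripts of the list without Npc2, and 7 of the 19 in Oligo5. Acat2, which makes the acetoacetyl-CoA used by Hmgcs1, had 5, 5, 1 and 0. The ratios of Oligo1 to Oligo5 were 4.93 (2.23 to 12.9) for Msmo1, 6.91 (0.983 to 300) for Acat2 and 1.76 (0.849 to 3.91) for Npc2.

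The sterol enzymes are known to share regulators, and the DNA before their starts was therefore read from the RefSeq promoter table (GRCm38.p6), which had an entry for 12 of the 15 enzymes. The sequences of 3 enzymes and of Ugt8a are shown because they differ in the matches described next. Each gives the 250 bases before the RefSeq start, with CCAAT on either strand (CCAAT or ATTGG) and TCACNCCAC, a form of the sterol regulatory element, in capitals; the 2 motifs did not overlap in these windows.
Hmgcs1 chr13:119690101-119690350 (plus strand): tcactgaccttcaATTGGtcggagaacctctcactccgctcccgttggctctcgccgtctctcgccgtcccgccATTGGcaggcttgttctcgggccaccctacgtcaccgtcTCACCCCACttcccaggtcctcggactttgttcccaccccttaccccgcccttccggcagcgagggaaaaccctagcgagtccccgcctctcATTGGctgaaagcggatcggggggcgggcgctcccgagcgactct
Cyp51 chr5:4104698-4104947 (minus strand): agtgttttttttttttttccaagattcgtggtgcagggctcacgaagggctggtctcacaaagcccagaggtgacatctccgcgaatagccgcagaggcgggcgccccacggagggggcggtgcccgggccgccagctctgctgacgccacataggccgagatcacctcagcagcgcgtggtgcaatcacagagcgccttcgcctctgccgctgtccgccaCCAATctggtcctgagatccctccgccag
Nsdhl chrX:72918271-72918520 (plus strand): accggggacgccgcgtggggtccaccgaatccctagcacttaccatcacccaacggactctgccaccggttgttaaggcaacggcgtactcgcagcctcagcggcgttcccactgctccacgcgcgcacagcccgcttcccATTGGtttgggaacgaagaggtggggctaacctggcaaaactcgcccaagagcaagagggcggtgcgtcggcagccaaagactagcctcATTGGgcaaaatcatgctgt
Ugt8a chr3:125938653-125938902 (minus strand): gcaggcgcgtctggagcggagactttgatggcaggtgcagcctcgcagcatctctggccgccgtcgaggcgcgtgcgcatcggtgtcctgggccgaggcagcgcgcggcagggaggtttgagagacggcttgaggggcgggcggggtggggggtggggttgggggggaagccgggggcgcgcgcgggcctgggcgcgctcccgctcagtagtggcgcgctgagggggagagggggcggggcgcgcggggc

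Hmgcs1 had 3 CCAAT matches and 1 TCACNCCAC match, Nsdhl had 2 CCAAT matches, Cyp51 had 1, and Ugt8a had none. Of the fatty acid genes described below, Elovl6 and Elovl7, higher in Oligo1, had none, and Far1, also higher there, had 3. Fasn, not higher in Oligo1, had 3 as well, and Aspa, seen only in Oligo5, had 1. A relation of matches to levels was not tested. All 12 sterol enzymes with an entry held CCAAT in at least 1 window, as did the 3 regulators, compared with 5 of 10 fatty acid genes, 4 of 6 sphingolipid genes and 37.5% of all 27025 gene symbols in the table. Of all 32851 windows, 33.8% held it. The other sterol list held it in 9 of 17 genes, and the other fatty acid and other sphingolipid lists, described below, in 17 of 29 and 10 of 25. GGGCGG on either strand was found in 11 of the 12 enzymes, against 35.4% of gene symbols and 32.7% of windows. It was also found in 5 of 10 fatty acid and 4 of 6 sphingolipid members. In the other sterol, other fatty acid and other sphingolipid lists it was in 11 of 17, 21 of 29 and 19 of 25 genes. TCACNCCAC was found in Hmgcs1 alone among the 31 members with an entry, in 1.22% of gene symbols and in 1.05% of windows. CACGTG was in 3 of the 12 enzymes, 1 of 3 regulators, 1 of 10 fatty acid and 2 of 6 sphingolipid members. In the other sterol, other fatty acid and other sphingolipid lists it was in 2 of 17, 3 of 29 and 4 of 25 genes. It was in 6.86% of gene symbols and 6.02% of windows. A match says only that these letters are in the window. The windows end at the RefSeq start, and the most used starts of the transcripts read here lay downstream of it. For Cyp51 this was 4104404 (19 of 34 transcripts) against 4104697, and for Hmgcs1 119690464 against 119690351. For Nsdhl it was 72918637 against 72918521, and for Ugt8a 125938550 against 125938652. The bases between these positions were not searched.

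The fatty acid genes summed to 123 transcripts per 10000 in Oligo1-1 (103 to 145) and 215 in Oligo1-2 (180 to 255). The Oligo5 cells held 134 (106 to 167) and 82.1 (61.1 to 108). The kinds overlapped, since Oligo5-1 was above Oligo1-1. The ratio of Oligo1 to Oligo5 was 1.44 (1.16 to 1.79), and leaving out 1 cell at a time moved its log2 value of 0.53 to between 0.19 and 1.00. Without Scd2 the sums were 54.0, 67.8, 45.8 and 29.0, with a ratio of 1.58 (1.10 to 2.30).

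Scd2, the brain desaturase that puts the first double bond into saturated acyl chains, gave 259 of the 410 transcripts. It had 79 and 89 transcripts in the Oligo1 cells and 52 and 33 in the Oligo5 cells, or 68.8, 147, 88.2 and 53.1 per 10000. The highest cell was Oligo1-2, and the other Oligo1 cell lay between the Oligo5 cells. The ratio of 1.37 (1.05 to 1.79) was lost when UMIs 1 base apart were merged. This left 110 transcripts in Oligo1 and 77 in Oligo5 and a log2 ratio of 0.02. Such merging can also join separate molecules whose UMIs are alike, and how often it did so was not tested. Without Oligo1-2 the log2 ratio was -0.03. VLMC-2 held 6 Scd2 transcripts and VLMC-1 none, so the oligodendrocytes were about 10-fold higher (4.53 to 27.5). Scd1, its close relative, had 4, 2, 1 and 0 transcripts in the 4 oligodendrocytes.

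The elongases, which add carbons to the acyl chain, differed among themselves. Elovl7 had 27, 15, 7 and 4 transcripts in the 4 oligodendrocytes, or 23.5, 24.8, 11.9 and 6.44 per 10000. The kinds did not overlap, and the ratio was 2.64 (1.33 to 5.68). Elovl6 had 9 and 5 transcripts in the Oligo1 cells and 0 in both Oligo5 cells. Its bound was 3.22-fold higher in Oligo1, and the interval of the ratio began at 2.29. The bound was 1.65 without Oligo5-1 and 1.57 without Oligo5-2. Elovl5 had 4, 3, 3 and 3, with a ratio of 0.806 (0.232 to 2.90). Elovl1 had 5, 1, 3 and 3, and at 4.35 and 1.65 per 10000 in Oligo1 against 5.09 and 4.83 in Oligo5 its kinds did not overlap, yet the interval of the ratio of 0.691 ran from 0.185 to 2.58.

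Fatty acid building itself was sparse. Fasn, the synthase, had 4, 1, 5 and 1 transcripts in the 4 oligodendrocytes. Acaca, which makes its malonyl-CoA, had 1, and Acly, which supplies cytosolic acetyl-CoA, had 4, divided evenly between Oligo1-2 and Oligo5-1. Fads1, a desaturase of polyunsaturated chains, had 3 in each Oligo1 cell and none in Oligo5, and Fads2 had none.

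Far1, the reductase that makes the fatty alcohol of ether lipids, had 5, 9, 1 and 0 transcripts in the 4 oligodendrocytes and 3 in VLMC-1. Its ratio of Oligo1 to Oligo5 was 9.67 (1.47 to 409), on 1 Oligo5 transcript. With only UMIs of 2 reads or more it was 2.98, without Oligo1-1 it was 18.0, without Oligo1-2 it was 5.27, and without Oligo5-2 it was 4.71. Without Oligo5-1 it was a bound of 1.65. The level in VLMC-1 of 12.8 per 10000 lay between the Oligo1 cells at 4.35 and 14.9. Aspa, which frees acetate from N-acetylaspartate, ran the other way. It had 5 and 7 transcripts in the Oligo5 cells and 0 in both Oligo1 cells, with a bound of 5.79-fold higher in Oligo5. Written as Oligo1 over Oligo5, this bound was 0.173, and the interval of the ratio reached 0.249. The bound was 0.501 without Oligo1-1, 0.264 without Oligo1-2 and 0.559 with only UMIs of 2 reads or more.

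**Figure D2:**
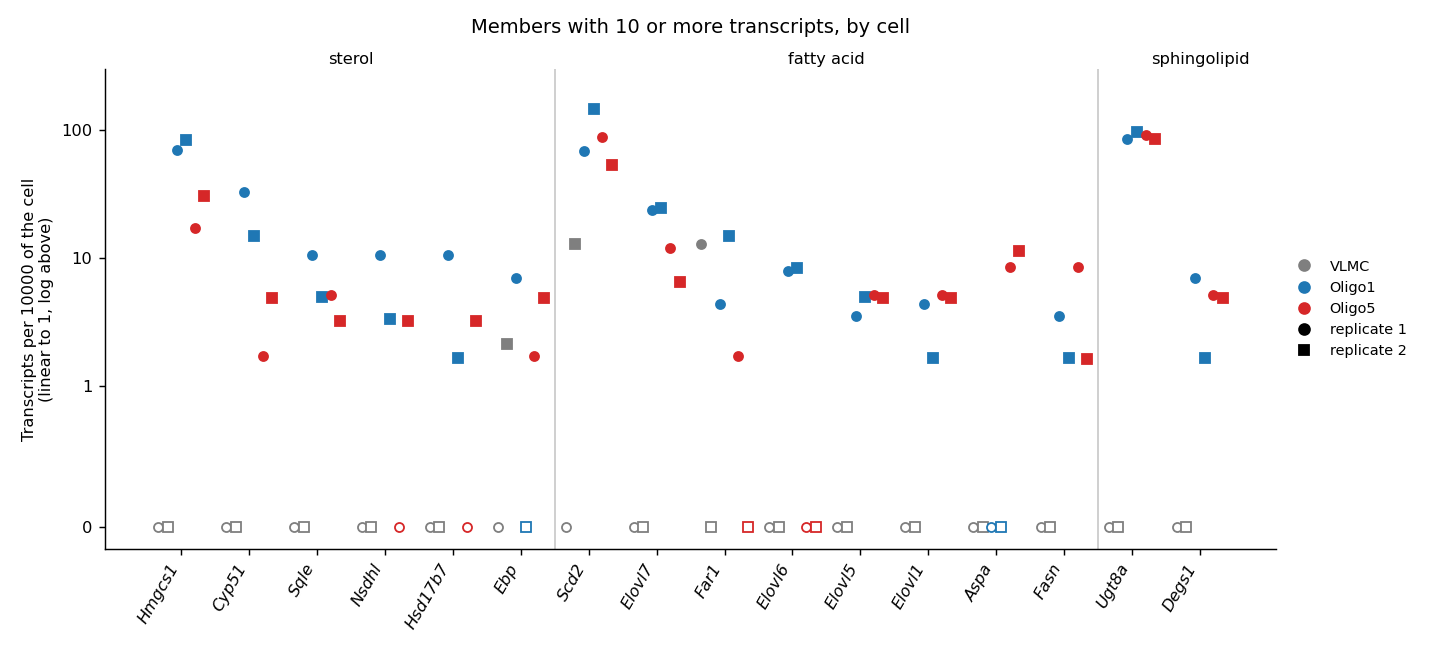
Transcripts per 10000 of the cell (vertical axis, linear up to 1 and logarithmic above) for the 16 members with 10 or more transcripts in the 6 cells; circles are replicate 1, squares replicate 2, and open symbols lie at 0. Hmgcs1 and Cyp51 are higher in both Oligo1 cells, Aspa is seen only in the Oligo5 cells, and the 4 Ugt8a points lie between 85.3 and 97.6.

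The sphingolipid genes summed to 100 (82.7 to 120) and 109 (84.5 to 139) per 10000 in the Oligo1 cells, and to 103 (79.2 to 133) and 93.4 (70.9 to 121) in the Oligo5 cells. The ratio of Oligo1 to Oligo5 was 1.05, with an interval from 0.829 to 1.34. No transcript was seen in either VLMC. The bound was 23.7-fold higher in the oligodendrocytes, and the interval of that ratio began at 19.2.

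This flat sum was nearly all Ugt8a, the ceramide galactosyltransferase of myelin, with 264 of the 300 transcripts. It had 98, 59, 54 and 53 transcripts in the 4 oligodendrocytes, or 85.3, 97.6, 91.6 and 85.3 per 10000, the narrowest range among the members with over 100 transcripts. Its ratio was 1.01 (0.788 to 1.31), so the ratio seen for Hmgcs1 lay outside this interval. With only UMIs of 2 reads or more, the log2 ratio of Ugt8a was 0.52 in place of 0.02. Against the VLMCs, the bound of Ugt8a was 20.9-fold higher in the oligodendrocytes, and the interval of that ratio began at 16.9.

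The steps before and after Ugt8a were seen in few transcripts. Degs1, the desaturase that makes ceramide, had 8, 1, 3 and 3 in the 4 oligodendrocytes, with a ratio of 1.04 (0.329 to 3.54). Sptlc1 and Sptlc2, subunits of the enzyme that starts the sphingoid base, had 4 and 1. Fa2h, which hydroxylates the acyl chain of myelin galactolipids, had 1, 1, 4 and 1, and Gal3st1, which sulfates galactosylceramide, had 6 and 3 in the Oligo1 cells and none in Oligo5. Cers2, the ceramide synthase for very long chains, had no transcript of its own, but 3 were assigned jointly to Cers2 and the overlapping Setdb1, 1 each in Oligo1-1, Oligo5-1 and VLMC-2.

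Among 29 other sphingolipid genes, 18 had rows and 2 reached 10 transcripts. Mal, a membrane protein that sits in glycosphingolipid-rich myelin, had 1 and 0 transcripts in the Oligo1 cells and 52 and 23 in the Oligo5 cells. Gltp, a glycolipid carrier, had 10, 8, 4 and 1. The list summed to 22.6 and 31.4 per 10000 in the Oligo1 cells and 112 and 66.0 in the Oligo5 cells, and so was 3.44-fold higher in Oligo5, with 75 of its 107 Oligo5 transcripts from Mal. Of 35 other fatty acid genes, 18 had rows and 4 reached 10 transcripts. Acsl3, an acyl-CoA synthetase, had 12 and 10 in the Oligo1 cells, 0 in both Oligo5 cells and 4 in VLMC-1. Hsd17b12 and Tecr, which work with the elongases, had 19 and 41 transcripts with ratios of 2.42 (0.759 to 10.1) and 1.93 (0.912 to 4.46), and Hacd3, the dehydratase of the same cycle, had 16, of which 7 were in VLMC-2.

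Counted over members, 16 reached 10 transcripts in the 6 cells, 19 had between 1 and 9 (98 transcripts in all) and 3 had none. Of the 16, 8 were at least 2-fold higher in Oligo1 than in Oligo5, namely Hmgcs1, Sqle, Cyp51, Nsdhl, Hsd17b7, Elovl6, Elovl7 and Far1. Of all 669 genes with 10 or more transcripts, 25.0% met the same rule. By pathway these were 5 of 6 sterol enzymes, 3 of 8 fatty acid genes and 0 of 2 sphingolipid genes. Some members reached 10 transcripts largely through the kind where they were higher, so these counts in part restate that filter. Oligo1-1 gave 12 of 16 transcripts of Nsdhl and 12 of 15 of Hsd17b7, Oligo1 all 14 of Elovl6 and Oligo5 all 12 of Aspa. Among sterol enzymes under 10 transcripts and seen in both kinds, the ratios ran from 0.414 for Dhcr7 to 4.14 for Lss. Aspa alone was at least 2-fold higher in Oligo5, against 16.7% of all genes. For these counts and the medians that follow, any side with fewer than 3 transcripts was raised to 3. The median log2 ratio of Oligo1 to Oligo5 was 1.61 for the 6 sterol enzymes, 0.07 for the 8 fatty acid genes and 0.10 for all 669 genes. With only sides at 0 raised, these medians were 1.90, 0.07 and 0.17. The count of 8 of 16 became 3 of 13 without Oligo5-1, where 13.6% of all genes tested passed, 3 of 14 without Oligo5-2 (11%) and 5 of 7 without Oligo1-1 (24.7%). With only UMIs of 2 reads or more it was 2 of 5 (22.8%), and with the long run alone 4 of 7 (29.2%).

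Another view asks for both cells of a kind above both of the other, with no minimum fold or count. Nsdhl, for example, met it at 3.31 per 10000 in Oligo1-2 against 3.22 in Oligo5-2. For 6 of the 16 members, Hmgcs1, Cyp51, Nsdhl, Elovl6, Elovl7 and Far1, both Oligo1 cells were above both Oligo5 cells, where 28.7% of all genes did so. The reverse held for Elovl1 and Aspa, against 14.5% of all genes.

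Against the VLMCs, 13 of the 16 members were at 0 in both VLMCs, while 39.9% of all genes were. These 13 reached 10 transcripts through the oligodendrocytes alone, so the counts of this paragraph in part restate that filter. The VLMC cells were the shallowest pair, so genes at 0 there could pass the 2-fold rule only with many oligodendrocyte transcripts. Hmgcs1, Cyp51, Scd2, Elovl7 and Ugt8a passed it, 5 of 16 against 13.6% of all genes. No member was at least 2-fold higher in the VLMCs, against 20% of all genes. The 10 member transcripts of the VLMCs were 6 of Scd2, 3 of Far1 and 1 of Ebp.

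How much of each transcript was read differed between the cells, which bears on every isoform below. Transcripts of the members covered an annotated first exon in 47.9% of cases in Oligo1-1 (216 of 451) and 56.1% in Oligo5-2 (83 of 148), but in 2.20% in Oligo1-2 (6 of 273) and 0.617% in Oligo5-1 (1 of 162). The same cells were low over all genes that are not members, at 12.9% and 20.5% against 48.8% and 49.4%. Thus 1 of the 2 Oligo1 cells and 1 of the 2 Oligo5 cells were low. The log2 ratio of the sterol enzymes was 1.44 between Oligo1-1 and Oligo5-2 and 1.77 between Oligo1-2 and Oligo5-1.

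**Figure D3:**
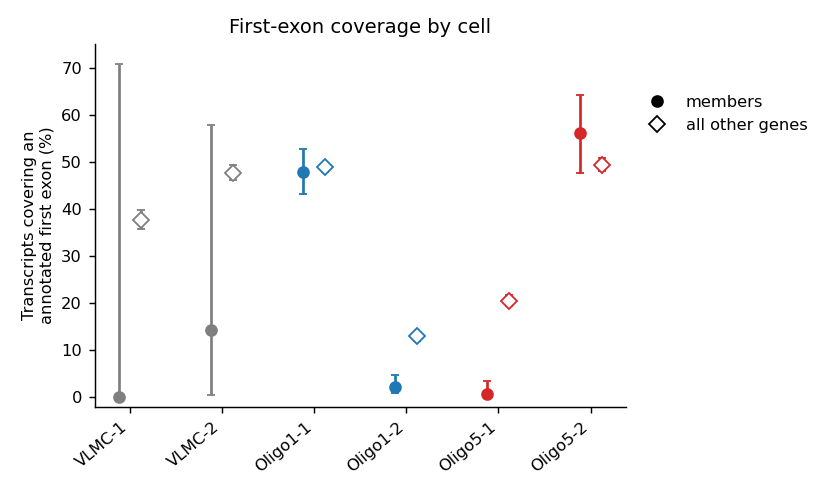
Share of transcripts covering an annotated first exon (percent, vertical axis) in the 6 cells, for members (filled circles) and all other genes (open diamonds); bars are exact Clopper-Pearson 95% intervals. Oligo1-2 and Oligo5-1 lie near 0 for the members, and Oligo1-1 and Oligo5-2 near 50.

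By pathway, the first exon was reached in 50.8% of sterol enzyme transcripts (167 of 329), 27.7% of sphingolipid transcripts (83 of 300) and 13.4% of fatty acid transcripts (55 of 410). These shares pool cells of unlike coverage. In Oligo1-1 they were 70.7%, 47.8% and 17.7%, and in Oligo5-2 71.1%, 48.3% and 52.9%, in the same order. The median length of the annotated model behind these transcripts was 3464, 3740 and 5455 bases. These are the model lengths of Hmgcs1, Ugt8a and Scd2, the gene with the most transcripts in each list, so each median describes 1 gene. In that order, these genes reached the first exon in 70 of 160, 73 of 264 and 13 of 259 transcripts. Isoforms and end sites are given for the 8 members with the most transcripts, Ugt8a, Scd2, Hmgcs1, Elovl7, Cyp51, Sqle, Far1 and Nsdhl, and for Aspa, in which an exon was skipped in 2 transcripts. Positions are in mm10, and ends within 5 bp of each other were joined into 1 site.

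Over all members there were 44 end sites with 3 or more transcripts, which held 965 transcripts. Of these, 19 sites in 19 genes lay within 20 bp of an annotated end inside the model and held 528. A further 22 sites lay farther from an annotated end, and they fell into separate kinds by the letters around them. Of the 22, 11 had no polyadenylation signal (AATAAA or ATTAAA in the 40 bases before the end), and 8 of these were followed by 7 or more A among the next 10 bases. The other 11 had a signal, and 1 of these was followed by such a run. Over all 34096 positions of the last exons of the 16 members, 1.99% were followed by a run of A and 4.85% had a signal before them. The authors required a run of A at the end of each read and then trimmed it, so where the genome itself holds A at an end, the reads do not show whether the tail began there.

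Windows of 30 bases show both kinds at the sites that carry most transcripts. For a site with a signal, the window is the last 30 bases before the end, with the signal in capitals. For a site with none, it is the last 15 bases of the transcript and the next 15 of the same annotated exon, with A after the end in capitals. All are read from the GENCODE transcript sequences for mm10.
Ugt8a chr3:125865512-125865541 (minus strand): aacttaaaacAATAAAcaaagttgaaaata
Ugt8a chr3:125865539-125865568 (minus strand): tttccactgtggtttAAAAAAAAAAgAAAc
Ugt8a chr3:125915066-125915095 (minus strand): ccctaatccagggtttAAAAAAAgAAAAgt
Scd2 chr19:44306830-44306859 (plus strand): tgttcatAATAAAatgaaatgatctgactg
Scd2 chr19:44303901-44303930 (plus strand): tttaggctgaagatttAAAAAAtAtAtAtA
Hmgcs1 chr13:119708051-119708080 (plus strand): caataactttgaAATAAAgttttagacaaa
Elovl7 chr13:108283435-108283464 (plus strand): agagggatgtgtgaatAAAAAAAAAAAgAA
Cyp51 chr5:4082539-4082568 (minus strand): aaagtAATAAAatctaaagagtgcttatgt
Cyp51 chr5:4082118-4082147 (minus strand): acactccccaaAATAAAacctcttttctct

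Ugt8a lies on the minus strand of chromosome 3 (125865271-125938619) in 6 exons. Of its 264 transcripts, 60 covered all 6 exons and 143 only the last one, which holds the 3′ untranslated region. A single transcript ended within 20 bp of the annotated end. The most used site, at 125865554, held 109 transcripts, had no signal and was followed by 10 A in the next 10 bases. The next, 42 bp downstream at 125865512, held 99 transcripts and had AATAAA 20 bases before the end. Sites at 125865321 and 125865339 held 26 and 9.

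The use of the pair of main Ugt8a sites was compared between cells. The site before the run of A took 42 of 72 transcripts at the pair in Oligo1-1 (58.3%, 46.1 to 69.8) and 31 of 49 in Oligo1-2 (63.3%, 48.3 to 76.6). In Oligo5-1 it took 16 of 46 (34.8%, 21.4 to 50.2) and in Oligo5-2 20 of 41 (48.8%, 32.9 to 64.9). Both Oligo1 cells were above both Oligo5 cells, but the intervals of the kinds overlapped for each pair of cells. Summed by kind, the shares were 60.3% (51.0 to 69.1) and 41.4% (30.9 to 52.4), whose intervals overlapped only at their edges. Overlap of separate intervals does not decide whether the shares differ. The difference was not tested, and each kind had only 2 cells.

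Another 12 Ugt8a transcripts ended at 125915081, inside coding exon 2 and 49809 bp before the annotated end. They were found in Oligo1-1 (6), Oligo5-1 (2) and Oligo5-2 (4), and 10 of them covered the first exon. The next 10 bases of the genome held 8 A. Besides, 3 transcripts joined exon 2 to exon 6 and left out exons 3 to 5, 1 in Oligo1-1 and 2 in Oligo5-2, each with 1 read.

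**Figure D4:**
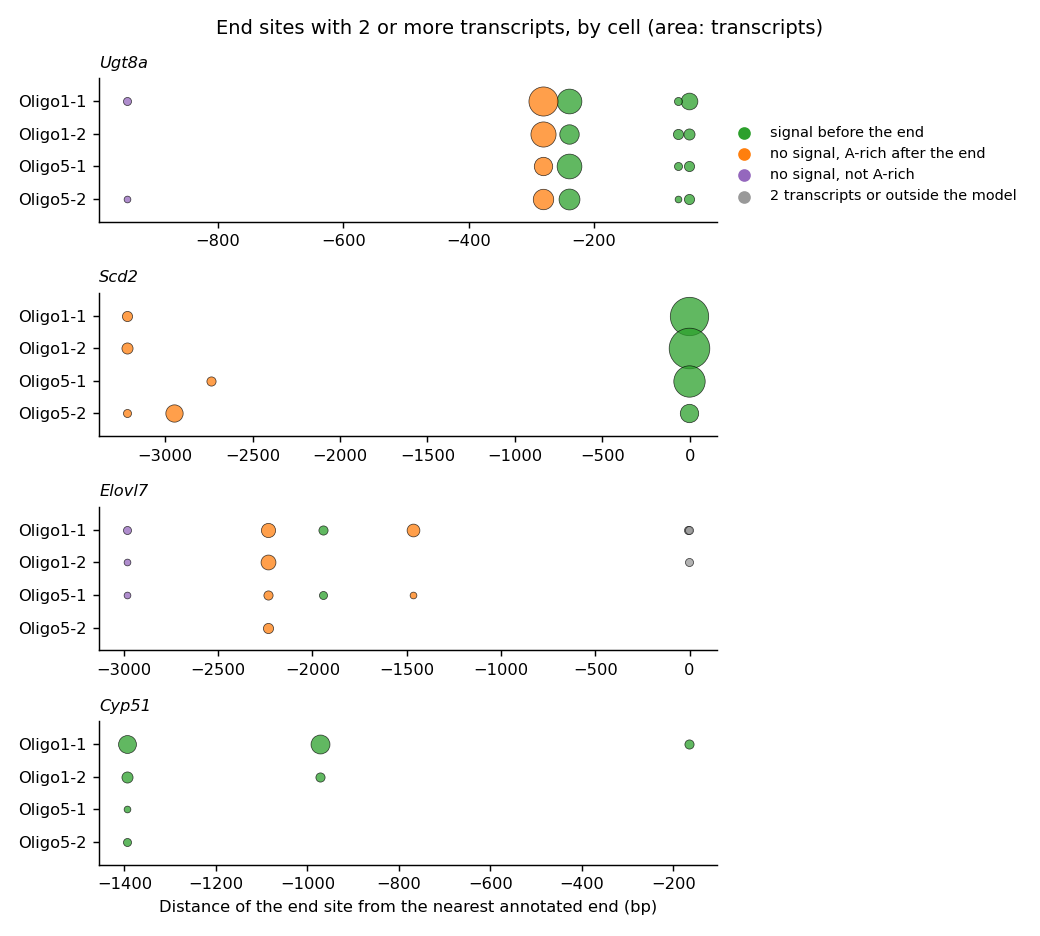
Distance of each end site from the nearest annotated end (bp, horizontal axis; negative is before the end) for Ugt8a, Scd2, Elovl7 and Cyp51 in the 4 oligodendrocytes, for sites with 2 or more transcripts; the area of a point grows with the number of transcripts and the colour marks the letters around the site. The Ugt8a sites 49 to 282 bp before the annotated end recur in all 4 cells, whereas the Scd2 site at -2949 is seen in Oligo5-2 alone; the Ugt8a site in exon 2 lies off the axis.

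Scd2 (chromosome 19, plus strand, 44293674-44306864) has a last exon of 3864 bp, and 237 of its 259 transcripts covered nothing else. The annotated end held 228 transcripts at 44306859, including all 6 of VLMC-2. In Oligo1-1, Oligo1-2 and Oligo5-1, 93.7%, 93.3% and 94.2% ended within 20 bp of it, against 16 of 33 (48.5%, 30.8 to 66.5) in Oligo5-2. In that cell 14 transcripts ended instead at 44303915, each with 1 read, at a site with no signal and 7 A in the next 10 bases. Of the 13 Scd2 transcripts that reached the first exon, 8 ended at this site, 3 at a like site at 44303647 and 1 at the annotated end. The Scd2 transcripts read back to the first exon were thus nearly all from the early ends.

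Hmgcs1 (chromosome 13, plus strand, 119690379-119708260) ended within 20 bp of an annotated end in 152 of 160 transcripts, with 150 at a single site at 119708080. All 70 transcripts that covered the first exon began within 15 bp of each other, between 119690457 and 119690471. The gene has a non-coding second exon of 59 bp (119694989-119695047) that was kept in 31 of these 70 and left out of 39. Oligo1-1 kept it in 27 of 55 (49.1%, 35.4 to 62.9) and Oligo5-2 in 4 of 14 (28.6%, 8.39 to 58.1), while Oligo1-2 had 1 such transcript, without it. The intervals overlapped, and a difference between the cells was not tested.

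Elovl7 (chromosome 13, plus strand, 108214404-108285683) covered all 8 exons in 20 of 53 transcripts. Its main end, at 108283449, held 26 transcripts in all 4 oligodendrocytes, lay 2234 bp before an annotated end and was followed by 9 A in 10 bases. A further 8 ended at 108284217, also followed by 9 A, and 5 at 108283741, behind AATAAA. Only 4 transcripts, 2 in each Oligo1 cell, reached 108287105, near the end of the RefSeq gene and past the GENCODE one.

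Cyp51 (chromosome 5, minus strand, 4081145-4104746) was the most completely read of the 8, with all 10 exons in 32 of 51 transcripts. It had main ends 421 bp apart, each behind AATAAA. The one nearer the coding region, at 4082539, held 23 transcripts in all 4 oligodendrocytes. The other, at 4082118, held 20, with 17 in Oligo1-1 and 3 in Oligo1-2. In Oligo5 the second had 0 of 3 transcripts at the pair, against 20 of 40 in Oligo1. The Oligo5 interval for the first site ran from 29.2% to 100%, and a difference was not tested.

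All 20 Sqle transcripts (chromosome 15, plus strand) ended at 59331191, at the annotated end, and 11 covered all 11 exons. All 16 Nsdhl transcripts (chromosome X, plus strand) ended at 1 site at 72958130, which lay 384 bp before an annotated end, had no signal in the 40 bases before it and 4 A after it. Of these, 8 covered all 8 exons. Far1 (chromosome 7, plus strand) covered only its last exon in 17 of 18 transcripts and most often ended at 113570879 (8 transcripts), behind AATAAA, or at 113569722 (5), before a run of A, with 2 at the annotated end. Hsd17b7 ended at 6 places over its 15 transcripts, the most used of them, 169952363 on chromosome 1, in 6 transcripts of Oligo1-1. Degs1, Elovl5 and Elovl1 had 1 site each, at an annotated end, and all 11 Fasn transcripts ended at 1 site 1120 bp before the annotated end, behind ATTAAA.

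Aspa (chromosome 11, minus strand, 73304992-73329596) was the one of these genes seen only in Oligo5. Of the 8 transcripts that spanned exon 4, 6 kept it and 2 left it out (95% interval of the share kept 34.9% to 96.8%). Both that left it out were in Oligo5-2, one with 2 reads and one with 1, and Oligo5-1 had 1 spanning transcript, which kept it. The exon is coding and 108 bases long, a multiple of a codon, so its loss leaves the reading frame after it as it was. Its sequence is given because it is the stretch that sets the forms apart.
Aspa exon 4 chr11:73313510-73313617 (minus strand): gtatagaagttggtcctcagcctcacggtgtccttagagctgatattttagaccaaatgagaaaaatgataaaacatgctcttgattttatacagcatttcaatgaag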

How the data were processed

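Stored cDNA of 6 single cells, made with the STRT/C1 protocol, was re-amplified and sequenced on a PacBio instrument. The authors aligned circular consensus reads to mm10 with GMAP (the labels name GSNAP), trimmed polyA, kept uniquely aligned reads, merged aligned blocks under 40 bp apart, assigned RefSeq genes and collapsed reads sharing a UMI, and deposited 1 line per transcript with the counts of its reads.

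Transcripts were counted per gene and cell, and 356 assigned to overlapping gene pairs were left out of gene values. The members and lists were chosen with earlier results of these data known. Ratios carry exact binomial intervals and levels exact Poisson ones. A group at 0 was set to 3 counts for the ratios called bounds, which leave out the counting error of the other side. For the 2-fold calls and medians any side under 3 counts was raised to 3. Genes with 10 or more transcripts over the cells were compared, a 2-fold difference was called where the higher side had at least 3 counts, and members with that many were named. Structures and ends were described for the 8 members with the most transcripts and any other with an exon skipped in 2 or more. GENCODE models linked to RefSeq matched 6118 of 6357 gene names and the 35 members. Ends within 5 bp were joined; the count of A after an end was added after the data were seen. Depth was 2338 to 11483 transcripts per cell, so 3 counts equal 2.61 to 12.8 per 10000. Of the members' transcripts 62.5% rested on 1 read, against 61.1% over all genes. Alternatives covered reads per UMI, UMI merging, runs, cells, thresholds and distances. Scripts used Python 3.11.15, pandas 2.3.3, numpy 2.4.6 and scipy 1.17.1, and were tested on simulated data. Some genes of the wider sterol pathway are not reported here.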

Additional observations from a re-analysis of the deposited data

How the results depend on the processing

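No paired analysis was possible because no test between kinds of cell was run, the labels name no animal, and a replicate number only names a cell. Log2 ratios and counts are given against the values as reported. The sterol ratio of Oligo1 to Oligo5 (1.63) was 1.01 in the short run alone and 1.32 to 2.03 when 1 cell was left out. Against the VLMCs it (6.28) was 3.11 to 6.50, the lowest being a bound without VLMC-2. The fatty acid ratio (0.53) was 0.19 without Oligo1-2 and 1.00 without Oligo1-1. The Scd2 ratio (0.45) was -0.03 and 1.07 without the same cells. The sphingolipid ratio (0.07) was 0.54 with UMIs of 2 reads or more. Its bound against the VLMCs (4.57) was 3.85 with those UMIs, 3.82 in the short run, 4.16 in the long run and 2.98 to 4.60 with 1 cell left out, lowest without VLMC-2.

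The 8 of 16 members at least 2-fold higher in Oligo1 became 2 of 5 with UMIs of 2 reads or more (22.8% of all genes tested), 5 of 11 in the short run (25.4%), 4 of 7 in the long run (29.2%), 4 of 6 in the short pair (20.1%), 5 of 16 at a fold of 3 (11.1%), 4 of 6 among genes with 20 or more transcripts (34.5%), and 3 to 8 with 1 cell left out. The 1 higher in Oligo5 became 0 with UMIs of 2 reads or more, in either run, in the full-length pair, in the short pair and among genes with 20 or more transcripts, 3 among genes with 5 or more, and 0 to 1 with 1 cell left out (0 without Oligo1-1 or without Oligo5-1). The 5 higher in oligodendrocytes became 14 when 0.5 was added to each count in place of the floor, where 48.0% of all genes passed, and 3 to 5 with 1 cell left out, with 3 without VLMC-2. The 0 higher in the VLMCs became 1 without VLMC-2.

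The 9 genes with described ends had 55 end sites, which became 33 with UMIs of 2 reads or more and 89 with ends chained over 1 bp. Their share near an annotated end (49.4%) was 45.0% in the long run and 43.7% within 5 bp. Their share covering a first exon (27.9%) was 23.9% with UMIs of 2 reads or more, 7.35% in the short run and 44.8% in the long run, and it was 14.1% without Oligo1-1 and 37.7% without Oligo1-2. For the pathway sums, counts and shares, 44 alternatives moved the value and 125 left it within its own interval or within 1.5-fold. The 125 include settings that could not change the value, such as leaving out a VLMC for a ratio of Oligo1 to Oligo5. The pairs of full-length and of short cells, and the A threshold, were chosen after the data were seen, and the cause of each change was not tested. At the shallowest cell, a gene had to reach 12.8 per 10000 to give 3 counts.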
